A study of Mus musculus with 3 samples.

Results

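The CDK inhibitor genes are the 8 mouse genes Cdkn1a, Cdkn1b, Cdkn1c, Cdkn2a, Cdkn2b, Cdkn2c, Cdkn2d and Cdkn3, taken by gene symbol from the platform's probe table. Each had 1 probe set, identified by its Entrez gene number, so that 8 of 23185 named genes were followed. The cells were LT-HSCs, the long-term stem cells of bone marrow that sustain blood formation, from female C57Bl/6 mice of 8 to 10 weeks. The FLASH group received 8 Gy of total body irradiation (TBI) as FLASH, which is delivery at an ultra-high dose rate. The CDR group received 8 Gy of TBI at CDR, read here as conventional dose rate from general use because the labels do not spell it out. The third group was non-irradiated. Cells were isolated 15 days after TBI, 10000 LT-HSCs being stated, and each group was measured on 1 Affymetrix array. The sources used here give neither the sorting gate nor the number of mice behind each array.

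Cyclin-dependent kinases (CDKs) drive the cell cycle when bound to cyclins, and the CDK inhibitors hold them back. The Cip/Kip proteins p21, p27 and p57, encoded by Cdkn1a, Cdkn1b and Cdkn1c, bind cyclin and CDK complexes, chiefly those of CDK2. The Ink4 proteins, encoded by Cdkn2a to Cdkn2d, bind CDK4 and CDK6 and keep them from cyclin D. Cdkn3 encodes a phosphatase that removes the activating phosphate of CDK2, and its transcript is abundant in dividing cells. In mouse stem cells, p57 and p27 are known for maintaining quiescence, p21 for the response to DNA damage through the transcription factor p53, and p18, the product of Cdkn2c, for limiting self-renewal.

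Values are the authors' log2 levels, and a difference between arrays is a difference of log2 levels. With 1 array per group, none of the differences below has a replicate check or a test, and "higher" and "lower" describe these arrays. Each array's detection level was the 95th percentile of its 1364 receptor genes for smell and pheromones (olfactory, vomeronasal and trace amine receptors), which LT-HSCs were assumed not to express. It was 4.22 for FLASH, 4.16 for CDR and 4.15 for non-irradiated, and a gene counted as detected in a pair of arrays where the brighter of them exceeded its own level. Tied values were held against the level of the array named first in the comparison. Cdkn2a, tied on all 3 arrays, thus counted as detected only for CDR minus non-irradiated. Differences of the receptor genes themselves had an SD over genes of 0.207 for FLASH minus non-irradiated, 0.206 for CDR minus non-irradiated and 0.178 for FLASH minus CDR. The receptor genes are dim, so these SDs need not hold for brighter genes. Of the 14 genes listed for LT-HSCs, 12 were measured and all 12 were above the detection level on every array. They include Cd34, Cd48 and Flt3, progenitor genes that gates for LT-HSCs usually exclude, and these go against the label: Cd34 read 10.81 on FLASH, 10.92 on CDR and 11.25 on non-irradiated, and Cd48 10.05, 10.18 and 9.70 in that order. The Kit transcript, for the stem cell factor receptor, read 9.38 on FLASH, 9.78 on CDR and 10.25 on non-irradiated, and Procr, the marker EPCR, read 6.33, 5.42 and 7.15 in that order. The T cell genes Cd3d, Cd3e and Cd3g were under the detection level on all 3 arrays, while Cd8a was just above it on each. Cd4 was above it on non-irradiated only, at 4.36. Some markers of other lineages were bright. On FLASH, CDR and non-irradiated, Jchain of plasma cells read 9.37, 7.65 and 9.79, and Cd79b of B cells 8.05, 8.58 and 9.04. Prss34 of basophils read 7.87, 6.53 and 9.25, and Pf4 of megakaryocytes 9.04, 8.90 and 9.35. Ms4a1, Ebf1 and Prdm1 of these lists were under the detection level on all 3. Of 9 granulocyte genes, 8 were above the detection level on FLASH, 7 on CDR and 8 on non-irradiated. Mpo of early granulocytes read 12.45 on FLASH, 12.52 on CDR and 12.36 on non-irradiated. Ltf of late granulocytes was the 1 gene of this list under the detection level on all 3. Other granule genes of the list were detected. Ngp read 4.79 on FLASH, 4.81 on CDR and 6.47 on non-irradiated, and Lcn2 read 8.40, 9.15 and 6.97 in that order. Camp read 4.48 on FLASH and 5.90 on non-irradiated, and 3.86 on CDR, under the detection level there. S100a9 read 8.81 on FLASH, 7.87 on CDR and 10.12 on non-irradiated, and S100a8 read 10.00, 9.82 and 10.02 in that order.

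Cdkn1b on the CDR array was the one CDK inhibitor gene past 1.5-fold, and it was lower there. Against the non-irradiated array, 5 of 8 genes were lower on FLASH, 1 was higher and 2 were tied, while 4 were lower on CDR, 2 were higher and 2 were tied. Among all detected genes, 33.0% were lower on FLASH and 30.4% on CDR. Cdkn1b was 1.62-fold lower on CDR and 1.27-fold lower on FLASH. Cdkn1a, the p53-responsive member, stood within 1.14-fold of the non-irradiated array on both. Cdkn3 was the only gene higher on both irradiated arrays in the deposited values, whereas under median centring, quantile normalisation and cyclic loess no gene was tied and 3 were higher on FLASH and 4 on CDR. In pooled cells, fewer cells of a type and less RNA per cell cannot be told apart.

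**Figure D1:**
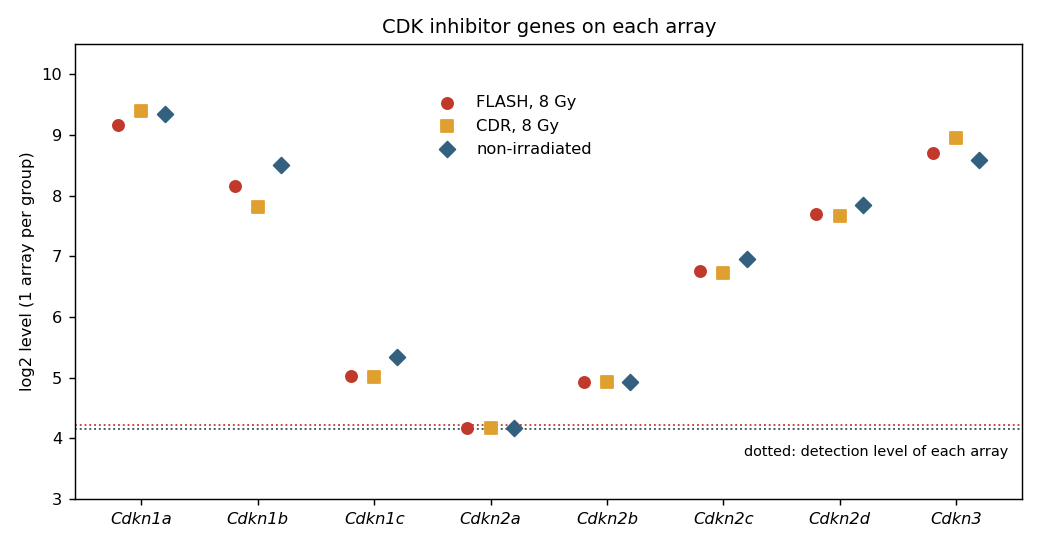
Log2 level of each CDK inhibitor gene on the FLASH, CDR and non-irradiated arrays (1 point per array, no error bars because each group has 1 array), with the detection level of each array as a dotted line. Cdkn1b has its lowest point on CDR at 7.82 and its highest on non-irradiated at 8.51, and the 3 points of Cdkn2a lie at 4.17, beside the detection levels.

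Among the Cip/Kip genes, Cdkn1b, which encodes p27, read 8.16 on the FLASH array and 7.82 on the CDR array, against 8.51 on the non-irradiated array. The order was thus non-irradiated, FLASH, CDR from high to low, and the gene was well above the detection level on all 3. The differences were -0.35 for FLASH minus non-irradiated, -0.69 for CDR minus non-irradiated and 0.35 for FLASH minus CDR. A difference at least as low was found for 10.8% of detected genes on FLASH and 4.04% on CDR, and a difference between FLASH and CDR at least as high for 3.53%. The p27 protein is also controlled through its destruction, which the arrays do not measure.

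Cdkn1a, which encodes p21, read 9.16 on the FLASH array and 9.39 on the CDR array, against 9.34 on the non-irradiated array. FLASH was the lowest of the 3 arrays, and CDR and non-irradiated lay close together. The differences from non-irradiated were -0.18 on FLASH and 0.05 on CDR, with -0.23 for FLASH minus CDR. At least as low a difference between FLASH and CDR was read for 6.35% of detected genes.

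Cdkn1c, which encodes p57 and is expressed from the maternal allele, read 5.019 on the FLASH array and 5.004 on the CDR array, against 5.33 on the non-irradiated array. Both irradiated arrays were lower and nearly equal, with differences of -0.31 on FLASH (1.24-fold) and -0.33 on CDR (1.26-fold). The gene lay 0.80 above the detection level on FLASH, 0.84 on CDR and 1.18 on non-irradiated, nearer to it than the other Cip/Kip genes. With an offset of 32 added before the log, both differences from non-irradiated came to -0.17.

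The 250 bases before the annotated transcript starts of Cdkn1b, the member furthest from the non-irradiated array, of Cdkn1a, the p53-responsive member, and of Cdkn3, the member higher on both irradiated arrays, are given below from RefSeq (GRCm38.p6), all on the plus strand and read 5′ to 3′. The Cdkn1b window is chr6:134920151-134920400, the Cdkn1a window, at the upstream of its annotated starts, is chr17:29090729-29090978, and the Cdkn3 window is chr14:46760291-46760540. Capitals mark matches to the motifs named after them.
Cdkn1b: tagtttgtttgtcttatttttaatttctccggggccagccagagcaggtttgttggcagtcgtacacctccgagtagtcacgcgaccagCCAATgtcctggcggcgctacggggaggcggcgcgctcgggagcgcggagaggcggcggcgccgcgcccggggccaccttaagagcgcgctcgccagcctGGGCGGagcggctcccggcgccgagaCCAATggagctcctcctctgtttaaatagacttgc
Cdkn1a: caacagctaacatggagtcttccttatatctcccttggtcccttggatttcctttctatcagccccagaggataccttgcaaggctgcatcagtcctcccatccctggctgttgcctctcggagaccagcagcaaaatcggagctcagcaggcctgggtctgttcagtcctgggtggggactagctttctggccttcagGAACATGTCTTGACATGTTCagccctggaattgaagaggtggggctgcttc
Cdkn3: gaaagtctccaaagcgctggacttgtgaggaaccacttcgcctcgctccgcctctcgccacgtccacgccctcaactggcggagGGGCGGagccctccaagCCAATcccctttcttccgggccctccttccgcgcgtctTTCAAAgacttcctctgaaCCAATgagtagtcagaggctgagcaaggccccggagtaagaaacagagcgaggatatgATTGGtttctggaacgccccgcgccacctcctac

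Motifs were searched on both strands for the GC box GGGCGG, the CCAAT box CCAAT, the cell cycle element CHR as TTTGAA, the FoxO element TGTTTAC, the E box CACGTG, the TATA box TATAAA, the E2F element TTTNGCGC and the p53 element. The last is a 20-base motif of 2 abutting half-sites RRRCWWGYYY, where R is A or G, W is A or T and Y is C or T. At least 19 bases had to match, with no mismatch at the C or G of either half-site. This tolerance was set after the Cdkn1a window had been read. The Cdkn1a window held a p53 element, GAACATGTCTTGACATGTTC, from 51 to 32 bases before the start, a motif found in 0.0578% of 32851 windows of the same length. The Cdkn1b window held 1 GC box, present in 32.7% of windows, and 2 CCAAT boxes, present in 33.8%. The Cdkn3 window held 3 CCAAT boxes, 1 GC box and 1 CHR match, the last present in 16% of windows, and no matches overlapped in these windows. Over the 10 windows of the 7 members with an entry, the GC box was the commonest match, and none held the FoxO element, the E box or the TATA box, present in 3.17%, 6.02% and 12.4% of all windows. The E2F element, in 1.13% of all windows, was matched once, before the second start of Cdkn2a. A match describes letters only and shows no binding.

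**Figure D2:**
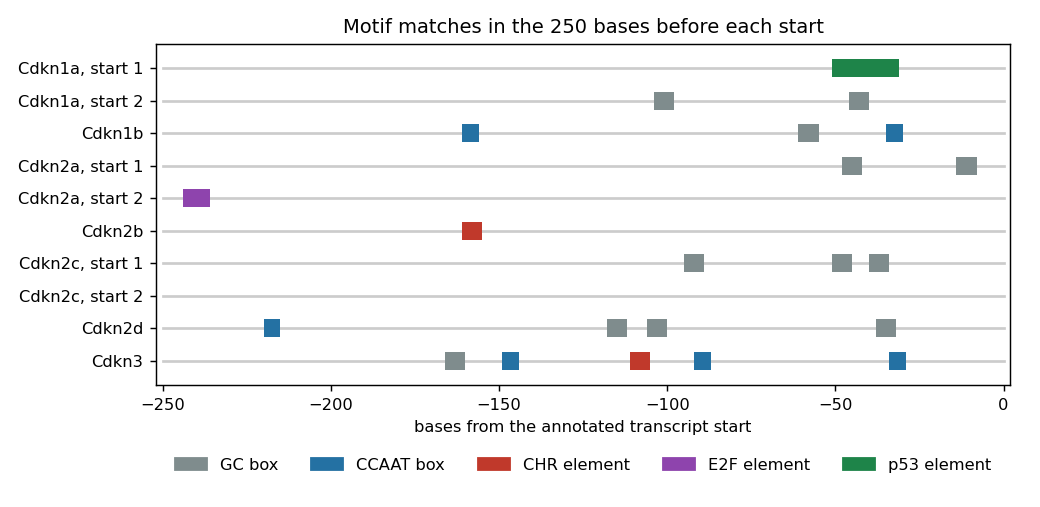
Motif matches in the 250 bases before each annotated start of the 7 CDK inhibitor genes with a RefSeq promoter entry, with the distance from the start in bases on the horizontal axis and 1 line per window. The p53 element appears only before start 1 of Cdkn1a, 51 to 32 bases from it, and the Cdkn3 window holds 5 matches.

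Among the Ink4 genes, Cdkn2c, which encodes p18, read 6.76 on the FLASH array and 6.73 on the CDR array, against 6.95 on the non-irradiated array. The irradiated arrays were both lower, by differences of -0.19 and -0.22, and 0.03 apart from each other. Cdkn2d, which encodes the CDK4 and CDK6 inhibitor p19Ink4d, showed the same order, reading 7.70 on FLASH and 7.67 on CDR, against 7.84 on non-irradiated. Its differences from non-irradiated were -0.14 on FLASH and -0.17 on CDR, under the receptor-gene SD of each comparison.

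Cdkn2a encodes p16Ink4a and, from another start and reading frame, p19Arf, the activator of p53. Both transcripts fall under 1 row of the table and cannot be told apart here. Cdkn2a read 4.17 on each of the FLASH, CDR and non-irradiated arrays, the same deposited value. It lay 0.05 under the detection level on FLASH and 0.01 and 0.02 above it on CDR and non-irradiated, so that it was at the detection level throughout. Cdkn2b, which encodes p15 and lies next to Cdkn2a on chromosome 4, read 4.94 on all 3 arrays, above the detection level and again identical. Such ties were common in the deposited values, all 3 arrays sharing 1 value for 39.8% of named genes, and a tie does not show that the transcript was equally abundant.

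Cdkn3, which encodes the CDK2 phosphatase, read 8.70 on the FLASH array and 8.95 on the CDR array, against 8.59 on the non-irradiated array. CDR was the highest of the 3 and FLASH lay nearer to non-irradiated. The differences were 0.11 for FLASH minus non-irradiated, 0.36 for CDR minus non-irradiated and -0.25 for FLASH minus CDR. At least as high a difference from non-irradiated was read for 23.1% of detected genes on FLASH and 8.22% on CDR.

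The comparison of FLASH with non-irradiated cells asked how expression stood 15 days after TBI at an ultra-high dose rate. Of 7 detected members, 0 were past 1.5-fold in either direction, where 8.89% of 13288 detected genes were. The largest differences were those of Cdkn1b and Cdkn1c, at -0.35 and -0.31. All 3 Cip/Kip genes were lower, with a median of -0.31, and the Ink4 genes had 2 lower and 2 tied. The median over the 8 genes was -0.16, against 0.00 over all detected genes, of which 33.0% were lower by any amount. Cdkn1b was the only member past a lower threshold, a log2 difference of 0.32, against 21.5% of detected genes. It fell short of it, by a small margin, under median centring (-0.3208 against a threshold of 0.3219) and with the offset of 32 (-0.31).

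The comparison of CDR with non-irradiated cells asked the same at CDR. Of 8 detected members, 1 was at least 1.5-fold lower, Cdkn1b, and 0 were at least 1.5-fold higher, where 8.58% of 13448 detected genes were past 1.5-fold and 5.38% were lower by that much. At 2-fold the count was 0, against 3.12% of detected genes. The median over the 8 genes was -0.08, against 0.00 over all detected genes, of which 30.4% were lower by any amount. At the lower threshold of 0.32 log2, 3 members were past it, Cdkn1b and Cdkn1c lower and Cdkn3 higher, against 20.7% of detected genes. Cdkn1c was no longer past it under median centring (-0.27), quantile normalisation (-0.26) or the offset of 32 (-0.17).

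**Figure D3:**
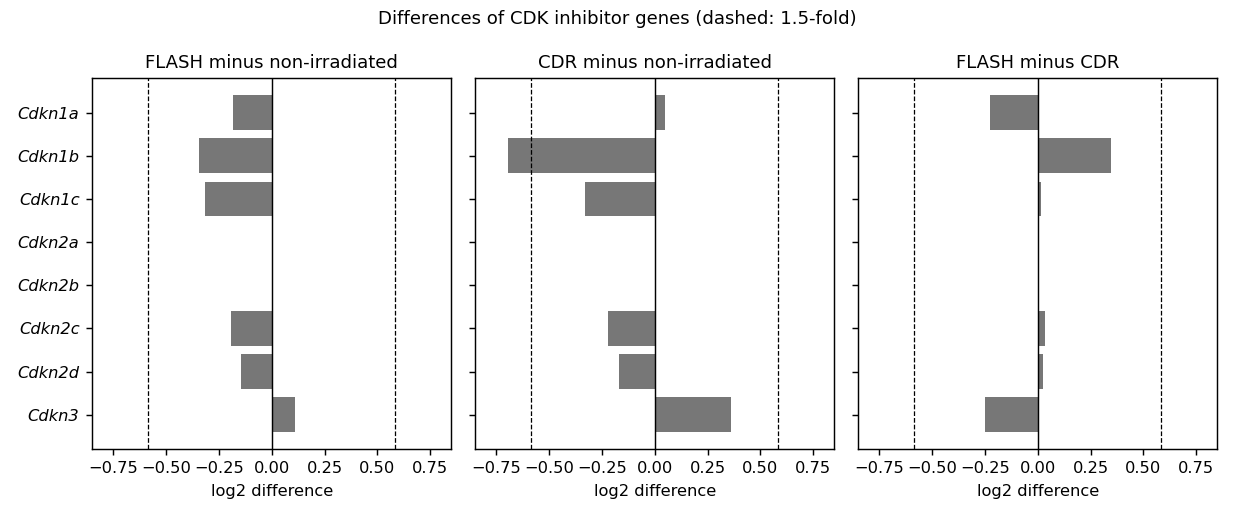
Log2 difference of each CDK inhibitor gene for FLASH minus non-irradiated, CDR minus non-irradiated and FLASH minus CDR, with 1.5-fold as dashed lines and no error bars because each group has 1 array. The bar of Cdkn1b on CDR, at -0.69, is the only one past a dashed line, and Cdkn2a and Cdkn2b have no bar because their values were tied.

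The comparison of FLASH with CDR asked whether the arrays of the 2 dose rates differed at 8 Gy. Of 7 detected members, 0 were past 1.5-fold, where 2.63% of 13184 detected genes were. Cdkn1b was higher on FLASH, at 0.35, while Cdkn3 and Cdkn1a were lower, at -0.25 and -0.23. Cdkn1c, Cdkn2c and Cdkn2d lay within 0.03, and the sign of each of these turned when the arrays were centred on their medians. The median over the 8 genes was 0.01. Cdkn1b was past the threshold of 0.32 log2, against 7.24% of detected genes, but not under median centring or with the offset of 32, both giving 0.31. FLASH and CDR were both set against the same non-irradiated array, so the differences from it are not independent of each other.

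**Figure D4:**
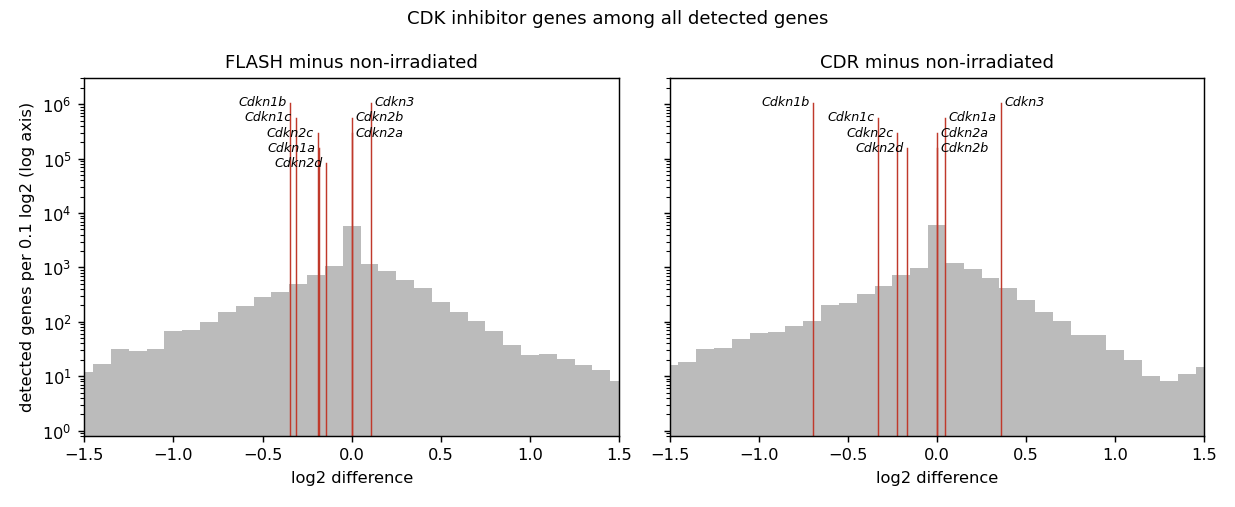
Number of detected genes per 0.1 log2 of difference (log axis) for FLASH minus non-irradiated and CDR minus non-irradiated, with the CDK inhibitor genes as labelled lines whose height carries no value. Differences beyond 1.5 log2 either way, of 149 genes on FLASH and 178 on CDR, lie outside the axis, Cdkn2a is drawn though not detected in the FLASH comparison, and Cdkn1b on CDR stands furthest from 0 among the members.

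In a list of cyclins, kinases and related genes around the inhibitors, more genes were higher than lower on the irradiated arrays. The list also holds Pcna, which is neither a cyclin nor a kinase, and Cdk7, Ccnh and Mnat1. Of 16 measured genes, 9 were higher by any amount on FLASH, with 2 lower and 5 tied, and 10 were higher on CDR, with 1 lower and 5 tied. Against non-irradiated, 3 were at least 1.5-fold higher on FLASH and 2 on CDR, and 0 were at least 1.5-fold lower on either. Of all detected genes, 3.59% on FLASH and 3.2% on CDR were higher by that much, and 5.3% and 5.38% lower. By any amount, 33.0% of all detected genes were lower on FLASH and 30.4% on CDR, and 33.2% and 34.9% were tied. Ccne1, cyclin E1, the partner of CDK2, read 8.08 on FLASH and 7.88 on CDR, against 6.79 on non-irradiated. Ccnd1, cyclin D1, the partner of CDK4 and CDK6, read 8.27 on FLASH and 8.21 on CDR, against 7.50 on non-irradiated. Of the kinase genes, Cdk4 stood at differences of 0.05 on FLASH and 0.02 on CDR, Cdk6 at -0.11 and 0.00, and Cdk2 was tied on all 3 arrays. All 17 pocket protein, E2F and partner genes, which act below the CDKs, were within 1.5-fold in both comparisons. Tfdp2, an E2F partner gene, was just inside it on FLASH, at -0.578 where 1.5-fold is 0.585, and stood at -0.43 on CDR. Past 1.5-fold in either direction were 8.89% of all detected genes on FLASH and 8.58% on CDR. Rbl2, the pocket protein p130 of resting cells, stood at -0.27 on FLASH and -0.23 on CDR, and the E2F family repressor gene E2f8 at 0.50 and 0.51.

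Genes of CDK inhibitor turnover were also within 1.5-fold, all 12 of them in both comparisons, with a median of 0.13 in each. The shares of all detected genes past 1.5-fold were 8.89% on FLASH and 8.58% on CDR. Skp2, the ubiquitin ligase subunit that marks p27 for destruction, read 7.72 on both the FLASH and CDR arrays, against 7.30 on non-irradiated, a difference of 0.43 on FLASH and 0.42 on CDR. Ubac1, a subunit of another ligase of p27, stood at 0.53 on FLASH and 0.56 on CDR. Cks1b, the cofactor of Skp2 for p27, stood at 0.01 on both.

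Regulators of Cip/Kip transcription were lower by any amount for 14 of 19 genes on FLASH and 13 on CDR. Among all detected genes, 33.0% on FLASH and 30.4% on CDR were lower by any amount. Of these FoxO, TGF-beta and other regulators, 3 were at least 1.5-fold lower on FLASH and 6 on CDR, with 0 at least 1.5-fold higher, where 5.3% of all detected genes on FLASH and 5.38% on CDR were lower by that much. Their medians were -0.17 on FLASH and -0.14 on CDR. Foxo3, an activator of Cdkn1b transcription, read 6.72 on FLASH and 6.68 on CDR, against 7.07 on non-irradiated. Gata2, a stem cell transcription factor, stood at -0.61 on FLASH and -0.94 on CDR, and Smad7, an inhibitor of TGF-beta signalling, at -0.70 and -0.68. Gfi1, a transcriptional repressor, was higher, at 0.25 on FLASH and 0.56 on CDR.

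The p53 list, in whose pathway Cdkn1a lies, had a median of 0.00 in both comparisons. Of 17 detected genes, 2 were at least 1.5-fold lower on FLASH and 2 on CDR, and 0 on FLASH and 1 on CDR at least 1.5-fold higher, where all detected genes gave 5.3% and 5.38% lower and 3.59% and 3.2% higher. Btg2, an antiproliferative p53 target that is also an early response gene, stood at -1.05 on FLASH and -1.08 on CDR, and Pmaip1, the pro-apoptotic target Noxa, at 0.51 and 0.71. Trp53 and Bax are not analysed here.

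Genes that control the Cdkn2a locus were taken as Polycomb and other regulators. Of 23 measured, 1 was at least 1.5-fold higher on each irradiated array, and 1 was at least 1.5-fold lower on FLASH and 3 on CDR. The shares of all detected genes were 3.59% higher and 5.3% lower on FLASH, and 3.2% higher and 5.38% lower on CDR. Bmi1, the Polycomb repressor of Cdkn2a, read 7.71 on FLASH and 7.79 on CDR, against 7.66 on non-irradiated. Cbx7, a Polycomb subunit known to repress the same locus, stood at -0.51 on FLASH and -0.93 on CDR, and Cbx6 at -0.65 and -1.13. Ets1, another regulator in the list, stood at -0.22 on FLASH and -1.01 on CDR, with 0.79 for FLASH minus CDR. Id1, an inhibitor of transcription factors such as those that activate p16, stood at 1.13 on both.

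Mitotic genes, with which Cdkn3 shares its expression in dividing cells, were higher for 23 of 24 members on each irradiated array and lower for 0. Their medians were 0.49 on FLASH and 0.41 on CDR, and 8 genes on FLASH and 7 on CDR were at least 1.5-fold higher, where 3.59% of all detected genes on FLASH and 3.2% on CDR were higher by that much. By any amount, 33.0% of all detected genes were lower on FLASH and 30.4% on CDR, and 33.2% and 34.9% were tied. Plk1, a mitotic kinase, read 9.56 on FLASH and 9.38 on CDR, against 8.47 on non-irradiated. The Cdkn3 differences of 0.11 and 0.36 were both under these medians. This list and the others named here were chosen with earlier results of these arrays known, and no direction is taken from them as independent evidence.

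**Figure D5:**
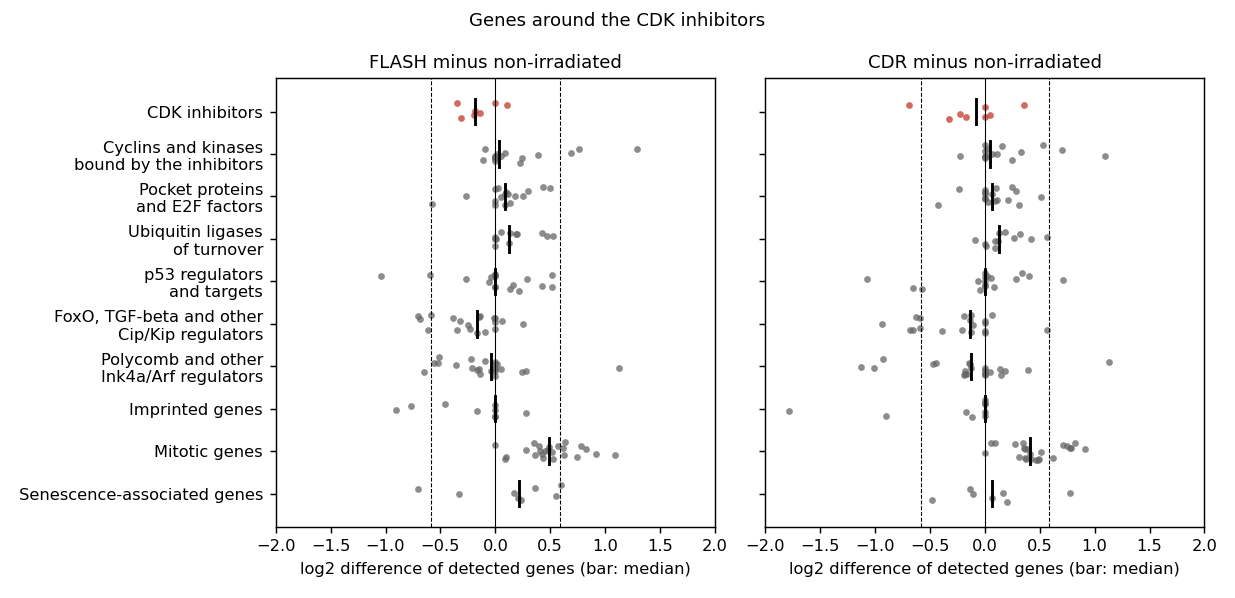
Log2 differences of the detected genes of each list for FLASH minus non-irradiated and CDR minus non-irradiated, 1 point per gene with its vertical place random within a row, the median as a bar and 1.5-fold as dashed lines. The mitotic genes lie at or to the right of 0 with medians of 0.49 and 0.41, and the CDK inhibitor genes, in red, lie between -0.69 and 0.36.

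Markers of other blood cells also moved with the groups, some lists being higher on the irradiated arrays and others lower. All 8 measured erythroid markers were higher on both irradiated arrays, and their summed linear level was 4412.9 on FLASH and 4152.0 on CDR, against 2366.8 on non-irradiated. The 9 monocyte and dendritic cell markers summed to 3375.7 on FLASH and 1922.8 on CDR, against 1433.4 on non-irradiated. The MHC class II genes Cd74, H2-Aa and H2-Eb1 made up 2654.1 of this on FLASH and 1118.3 on CDR, against 726.4 on non-irradiated. The other 6 summed to 721.6 on FLASH and 804.5 on CDR, against 707.0 on non-irradiated. Of these 6, 3 were higher, 2 lower and 1 tied on FLASH, and 4 were higher and 2 tied on CDR. Clec9a, a dendritic cell gene among them, stood at 2.15 on FLASH and 0.95 on CDR. Csf1r, the receptor of a monocyte growth factor, stood at -0.78 on FLASH and 0.23 on CDR. The 12 genes listed for LT-HSCs summed to 4704.5 on FLASH and 5002.7 on CDR, against 7097.5 on non-irradiated. Without Cd34, Cd48 and Flt3 the other 9 summed to 1696.7 on FLASH and 1715.4 on CDR, against 3411.1 on non-irradiated, and 8 of them were lower on FLASH and all 9 on CDR. Of Cd34, Cd48 and Flt3, only Cd48 was higher, at 0.34 on FLASH and 0.47 on CDR. Flt3 was lower, at -1.47 on FLASH and -1.05 on CDR, as was Cd34, at -0.44 and -0.34. Among all detected genes, 33.0% on FLASH and 30.4% on CDR were lower by any amount, and 33.2% and 34.9% were tied. The 7 megakaryocyte markers summed to 1142.7 on FLASH and 1101.8 on CDR, against 1755.8 on non-irradiated. B cell markers summed to 419.8, 506.0 and 688.3 in that order, and plasma cell markers to 1229.4, 690.3 and 1384.0. Mast cell and basophil markers summed to 1414.3, 1259.0 and 1779.2, and granulocyte markers to 13226.8, 14042.7 and 12438.6. No marker of the erythroid, the monocyte and dendritic cell or the LT-HSC list was under the detection level on all arrays. The part of these shifts in the CDK inhibitor values was not tested.

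The neighbours of the CDK inhibitor genes, taken from the RefSeq assembly GRCm38.p6, were read beside them. Lockd, the long noncoding RNA gene next to Cdkn1b, read 8.99 on FLASH and 8.68 on CDR, against 9.15 on non-irradiated, the same order of arrays as Cdkn1b. Slc22a18, an imprinted gene next to Cdkn1c, stood at -0.70 on FLASH and -1.01 on CDR. Phlda2, an imprinted growth regulator gene beyond it, read 4.82 on FLASH, 3.80 on CDR, under the detection level there, and 5.59 on non-irradiated, so that it was at least 2.69-fold lower on CDR. Trp53cor1, the noncoding lincRNA-p21 gene next to Cdkn1a, stood at -0.29 on FLASH and -0.19 on CDR. Mtap, an enzyme gene of methionine salvage next to Cdkn2a, stood at 0.35 on FLASH and 0.51 on CDR, while Cdkn2a itself was tied.

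Cdkn1b was the only member past 1.5-fold, and the genes most like it over the 3 arrays were sought among 11820 detected named genes. Likeness was the Euclidean distance over the differences FLASH minus non-irradiated and CDR minus non-irradiated. Igip was nearest, at a distance of 0.010 log2, followed by Ctdsp2 at 0.028, which encodes a small phosphatase, and Gpr137b at 0.047. Over 3 arrays many genes share such a pattern by their number alone.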

How the data were processed

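Levels of 25206 probe sets on 3 arrays, 1 per group, were used as deposited. They are the authors' processed log2 levels, the log base being taken from their range. Partek is named, without a version, in the submitters' processing notes, and total RNA was biotin-labelled with an Affymetrix whole transcript kit, per the labels' protocols. The sources used here name no background correction, summarisation or normalisation, so their effect on small differences and on exact ties between arrays is unknown. The platform's probe table gave 23185 probe sets 1 symbol each, 0 several, and 2021 were not listed. The RefSeq gene table gave the same 23185 symbols.

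Differences were taken between log2 levels, and genes were counted past 1.5-fold among detected genes. No test was possible, and precision is limited by having 3 arrays. The genes named are all 8 members, up to 2 detected genes per direction and list by mean difference from non-irradiated, the 3 genes most like any member past 1.5-fold, the nearest measured neighbours and the cell type markers. Kinases, Foxo3, Bmi1, Cks1b and single values of other list members were named after their values were seen, and Phlda2 is named under the rule. Members and lists were chosen with earlier results of these data known. Alternatives were median centring, quantile normalisation, cyclic loess (limma 3.58.1, R 4.3.3), an offset of 32, other detection levels and other folds. Calculations were made in Python 3.11.15 with pandas 2.3.3. Of these, only the fold calls and the quantile normalisation were tested on simulated data.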

Additional observations from a re-analysis of the deposited data

How the results depend on the processing

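The count of CDK inhibitor genes past 1.5-fold stayed at 0 for FLASH minus non-irradiated, 1 for CDR minus non-irradiated and 0 for FLASH minus CDR under median centring, quantile normalisation, cyclic loess, the offset of 32, no detection filter, detection at the 99th percentile and dim values raised to the detection level. It changed with the fold alone: at a threshold of 0.32 log2 the counts were 1, 3 and 1, and at 2-fold the CDR count was 0. Under the 4 other scalings and offsets, Cdkn1b ranged from -0.72 to -0.62 on CDR and from -0.37 to -0.31 on FLASH against non-irradiated. Over all alternatives, the median of the 8 genes for FLASH minus non-irradiated ran from -0.18 with detected members only to -0.13 as a mean, and for CDR minus non-irradiated from -0.13 as a mean to -0.03 under median centring. For FLASH minus CDR the median of 0.01 became -0.02 under median centring, so that it has no settled sign. With 1 array per group, no replicate could be left out. No paired analysis was possible either, again because each group has 1 array. The levels of Cdkn2a lie at the detection level, and no difference in it could be detected here.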

Other observations

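Senescence-associated genes, with which p16 and p21 are often read, were read beside them. Of 13 measured genes of 14 listed, 8 were detected for FLASH minus non-irradiated and 7 for CDR minus non-irradiated, and past 1.5-fold were 2 on FLASH and 1 on CDR, where 8.89% and 8.58% of all detected genes were. The gene past it on both arrays was Tnf, the cytokine tumour necrosis factor, at 0.60 on FLASH and 0.77 on CDR. Plaur, the urokinase receptor gene, was lower, at -0.71 on FLASH and -0.48 on CDR. Lmnb1, the lamin B1 gene whose loss is a known sign of senescence, stood at 0.21 on FLASH and 0.20 on CDR. Il6 and Cxcl1, genes of secreted inflammatory factors, were under the detection level on all 3 arrays. Cxcl2 and Ccl2, genes of the same kind in this list, were above it on all 3.

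Imprinted genes, the class to which Cdkn1c belongs, were mostly under the detection level or tied. Of 15 measured genes, 9 were detected in each comparison with non-irradiated, and 2 were at least 1.5-fold lower on FLASH and 2 on CDR, with 0 higher, where 5.3% and 5.38% of all detected genes were lower by that much. They were Phlda2, described beside Cdkn1c, and Sgce. Sgce, an imprinted gene of the sarcoglycan family, read 4.37 on both the FLASH and CDR arrays, against 5.27 on non-irradiated. Grb10, an imprinted growth factor receptor adaptor gene, was at 0.28 on FLASH and -0.11 on CDR against non-irradiated.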
